A study of Drosophila melanogaster with 6 samples.

Results

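The basement membrane genes that Drosophila blood cells express were examined as a set of 10 named genes, and 9 of them were measured among 11981 genes in all. Members were chosen by name, as the structural proteins and enzymes of this matrix, and every probe set (a group of short probes reading 1 transcript region) annotated to exactly 1 of them was taken. These were the collagen IV chains Col4a1 and vkg, the laminin chains LanA, LanB1 and LanB2, the perlecan gene trol, SPARC, the peroxidasin gene Pxn and the matrix metalloproteinases Mmp1 and Mmp2. No probe set was annotated to Mmp1 in the table used, so it is not analysed here. The other 9 genes were read by 18 probe sets, of which 8 belonged to trol, 2 each to Pxn and Mmp2 and 1 to each of the remaining genes.

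A basement membrane is a thin sheet of extracellular matrix that lines the organs of the fly. Laminin trimers and collagen IV trimers form networks that perlecan and nidogen connect, peroxidasin crosslinks collagen IV, and SPARC binds collagen IV and is needed for its normal deposition. Metalloproteinases cut the sheet when tissues are remodelled. Larval fat body makes much of the collagen IV, while embryonic hemocytes, the migrating macrophage-like blood cells, lay down much of the early matrix.

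Total RNA came from DGRC S2 cells, a line derived from Drosophila embryos with features of hemocytes, on 6 Affymetrix Drosophila Genome 2.0 arrays. The untreated group received no dsRNA, the mock group received dsRNA against β-galactosidase, and the NELF-depleted group received dsRNAs for NELF-B and NELF-E, subunits of the negative elongation factor, which holds RNA polymerase II paused soon after initiation. Both treatments lasted 96 hours, and every group had 2 arrays. All groups were the same cultured line, so they show what these cells transcribe and not a basement membrane, and neither protein nor secretion was measured. Nothing in the labels says that arrays of a group were separate cultures, so p-values cover only the spread between these arrays, which may be technical.

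Levels below are normalized log2 intensities, and a difference of 1 is a 2-fold difference. Background, a level of 3.88, is the 95th percentile over 17 control probe sets for tag sequences. Deposited medians ranged from 11.7 to 14.2 intensity units over the arrays, and the 2 arrays of a group differed by a median of 0.14 to 0.165 log2 units for genes above background. Both dsRNA targets were lower on the NELF-depleted arrays than on the other 4, with 26.1% of NELF-B and 19.0% of Nelf-E mRNA left against mock. Means above background were found for 6532 of all 11981 genes and for 6 of 8 plasmatocyte markers. Among them were the GATA factor gene srp at 10.94 to 11.40 and the scavenger receptor gene crq at 9.40 to 9.79. Hml and He had means nearer background, at 4.95 and 4.23, and that of Sr-CI was below it, at 3.58. Means above background were also found for 2 of 3 lamellocyte markers (msn and cher, not atilla) and 1 of 3 crystal cell markers (PPO2, not lz or PPO1). NimC1, a phagocytosis receptor gene used to mark plasmatocytes, was below background on all 6 arrays. Of fat body markers, 3 of 6 were measured and none had a mean above background, though Lsp2 exceeded it on 3 arrays; both measured muscle markers stayed below it on all 6. The plasmatocyte phagocytic receptor gene eater was called lower in NELF-depleted than mock cells, at -0.87 (SE 0.148, adjusted p = 0.0170), the sole call among the 8. Of the others NimC1 had a lower value, and Hml, Sr-CI, ush, He, crq and srp had higher values, at 1.23, 1.31, 0.42, 0.22, 0.16 and 0.11, none of which passed. The summed plasmatocyte marker level was 12.22 to 12.50 in untreated, 12.16 to 12.35 in mock and 12.38 to 12.42 in NELF-depleted cells, and that of fat body markers 3.89 to 4.56, 4.46 to 5.06 and 4.22 to 4.49. The fat body sum adds 3 genes with means below background, so it cannot be set against the background of a single probe set. The plasmatocyte sum is mostly its brightest genes, srp and ush. The part of these cell types in the results below was not tested. In bulk RNA fewer cells of a type and less RNA per cell cannot be told apart. Of 3 neuron and glia markers 2 were measured. The neuronal gene elav lay above background on all 6 arrays, between 5.97 and 6.95. The other, repo, had a mean of 3.27, below background, and exceeded it on 1 array.

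All 9 measured genes were expressed in S2 cells, each above background on all 6 arrays by its brightest probe set. Of all 11981 genes, 6532 had means above background. No member passed the test in any of the 3 comparisons. Most of the structural components differed little between NELF-depleted and mock cells after quantile normalization, which removes a shift shared by all genes. The extremes were Pxn, with a log2 difference of 0.52, and Mmp2, with one of -0.56. By limma with an intensity-dependent prior and Benjamini-Hochberg adjustment over all genes, 1.35% of genes were called in this comparison at an adjusted p under 0.05, against 0 of the 9 members. The median member difference was -0.02, and that of all genes was 0.01. With 1 prior variance shared by every gene, limma called 0% of genes here. That test gave 1097 genes an unadjusted p under 0.05, where the intensity-dependent test gave 1320. Scaled on hybridization controls in place of quantile normalization, the all-gene median was -0.422. That scaling called 2726 of all 11981 genes, 17 of them higher, and 4 members, all lower (vkg, LanB1, trol and Mmp2).

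**Figure D1:**
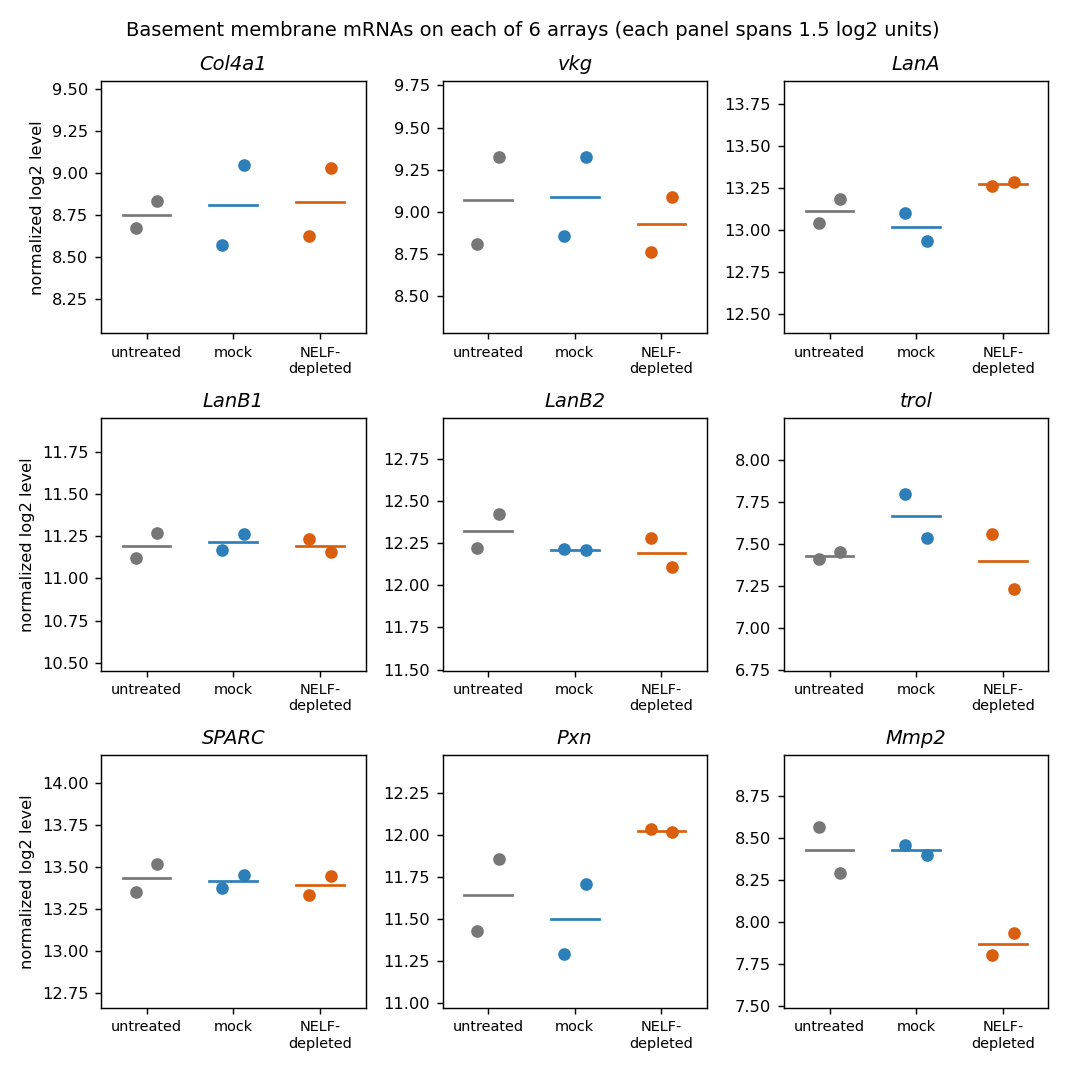
Normalized log2 level of each measured basement membrane gene (vertical axis) on the 2 untreated, 2 mock and 2 NELF-depleted arrays (points), with bars at the group means; each panel spans 1.5 log2 units around its gene's mean. Both NELF-depleted points lie above all 4 control points for Pxn and LanA and below them for Mmp2, while the groups overlap in the other 6 panels.

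Col4a1 and vkg encode the α1 and α2 chains of collagen IV, the main network-forming collagen of the fly. They are neighbours in the RefSeq gene table (Release 6), with 0 genes listed between them, and are known to be transcribed away from each other. Untreated cells had Col4a1 levels of 8.67 and 8.83, mock cells of 8.57 and 9.05, and NELF-depleted cells of 8.63 and 9.03. For vkg they were 8.81 and 9.33 in untreated, 8.85 and 9.32 in mock and 8.76 and 9.09 in NELF-depleted cells. The arrays of each group lay further apart than the group means did, and all 3 groups overlapped for both genes.

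Within each group the array numbered replicate 2 was the higher for both collagen genes. The gap between the arrays was 0.16, 0.47 and 0.41 for Col4a1 and 0.52, 0.47 and 0.33 for vkg in untreated, mock and NELF-depleted cells. Which mock array was higher depended on the scaling: the deposited intensities were 425 and 416 for Col4a1 and 514 and 502 for vkg, so there the other mock array led by a little. Against mock, NELF-depleted cells differed by 0.02 (SE 0.172) for Col4a1, with a 95% confidence interval from -0.36 to 0.40. For vkg the difference was -0.16 (SE 0.195), with an interval from -0.60 to 0.27. These are the widest intervals among the members in this comparison. As folds their bounds were 0.777 and 1.32 for Col4a1 and 0.661 and 1.20 for vkg, from a fit that does not use the replicate number. With any 1 array left out the differences ranged from -0.22 to 0.25 for Col4a1 and from -0.40 to 0.07 for vkg. Leaving out 1 array also makes the replicate numbers of the groups unequal, which by itself moves these values. Set against the mock array of the same number, vkg was lower on both NELF-depleted arrays (8.76 against 8.85, 9.09 against 9.32). Col4a1 was not lower on both (8.63 against 8.57, 9.03 against 9.05).

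Laminin is a cross-shaped trimer of an α, a β and a γ chain, here LanA, LanB1 and LanB2, and it is the first component that assembles on cell surfaces. LanB1 held the narrowest range over the 6 arrays of all members. Its levels were 11.12 and 11.27 in untreated, 11.17 and 11.27 in mock and 11.23 and 11.16 in NELF-depleted cells, a spread of 0.15. LanB2 lay at 12.22 and 12.42, then 12.21 and 12.21, then 12.28 and 12.11 in the same order of groups. The groups overlapped for both chains.

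Differences between NELF-depleted and mock cells were -0.02 (SE 0.0964) for LanB1 and -0.02 (SE 0.111) for LanB2. The 95% interval for LanB1 ran from 0.848-fold to 1.14-fold, and that for LanB2 from 0.833-fold to 1.17-fold. LanA, one of the α chains that the fly possesses, was at 13.04 and 13.18 in untreated, 13.10 and 12.94 in mock and 13.26 and 13.29 in NELF-depleted cells. Both NELF-depleted arrays were thus above the controls, by a margin smaller than the distance between the mock arrays. LanA differed from mock by 0.25 (SE 0.115, adjusted p = 0.455) and from untreated by 0.16 (adjusted p = 0.734), and neither passed. In deposited intensities the LanA groups overlapped, with 8963 and 9566, 9153 and 6518, and 10892 and 9302 units.

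The other α chain gene, wb, belongs to the related matrix genes described further on. It exceeded background on 1 untreated array and on both NELF-depleted arrays, and on neither mock array. LanA is therefore the α chain gene that was measured above background on every array.

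Perlecan, encoded by trol, is the large heparan sulfate proteoglycan of the basement membrane and is made in many isoforms. Its brightest probe set read 7.41 and 7.45 in untreated, 7.80 and 7.54 in mock and 7.56 and 7.23 in NELF-depleted cells. The NELF-depleted arrays fell on both sides of the untreated pair, and the higher of them exceeded the lower mock array. NELF-depleted cells differed from mock by -0.27 (SE 0.165, adjusted p = 0.630) and from untreated cells by -0.03 (adjusted p = 0.966). The difference from mock rested on single arrays: it was -0.11 without NELF-depleted replicate 2, -0.14 without mock replicate 1 and -0.43 without NELF-depleted replicate 1, and none of these passed. Mock differed from untreated by 0.24 (SE 0.165, adjusted p = 1.0), a value that turned to -0.15 in the deposited scale, to -0.047 with arrays centred on their medians and to -0.13 with the median over probe sets.

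The 8 trol probe sets did not act as copies of 1 measurement. Means of 4 of them were above background, and another 3 were below it on all 6 arrays. The second brightest read 6.68 and 6.47 in untreated, 6.40 and 6.39 in mock and 6.71 and 6.69 in NELF-depleted cells. It differed from mock by 0.30 (SE 0.199, adjusted p = 0.665) after NELF depletion, a sign opposite to that of the brightest, and neither passed. The remaining 2 above background differed by 0.10 and -0.60 with SEs of about 0.5, and the cause of the disagreement was not tested.

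SPARC, the collagen-binding glycoprotein, had among the steadiest levels. It lay at 13.35 and 13.52 in untreated, 13.38 and 13.45 in mock and 13.33 and 13.45 in NELF-depleted cells, so that all groups overlapped. The difference from mock was -0.02 (SE 0.118), with an interval from 0.819-fold to 1.18-fold. From untreated it was -0.04 (SE 0.118).

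Pxn encodes peroxidasin, the heme peroxidase that forms sulfilimine crosslinks between collagen IV molecules. Its levels were 11.43 and 11.86 in untreated, 11.29 and 11.71 in mock and 12.03 and 12.01 in NELF-depleted cells. The NELF-depleted arrays were close together and above all controls, whereas the arrays of each control group were about 0.4 apart. Against mock the difference was 0.52 (SE 0.159, 1.44-fold, 95% interval 0.17 to 0.87 in log2), with an unadjusted p of 0.00802 and an adjusted p of 0.217. Against untreated cells it was 0.38 (SE 0.159, adjusted p = 0.443), so the higher level was not called in either comparison. All 16 alternatives kept the sign of the difference from mock, and none called it. The lowest adjusted p among them was 0.0615, from limma with the replicate number as a block.

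The size of the Pxn difference rested in part on a single array. Without mock replicate 1 it was 0.32 (adjusted p = 0.533), and without mock replicate 2 it was 0.73 (adjusted p = 0.186). In deposited intensities Pxn read 3168 and 4214 units in untreated, 2770 and 2675 in mock and 4379 and 3559 in NELF-depleted cells. On that scale the NELF-depleted pair was above mock but overlapped the untreated pair. The second Pxn probe set lay nearer background, at 5.24 and 5.58, 4.89 and 5.30, and 4.87 and 5.88 in the same order. Its groups overlapped, and it differed from mock by 0.28 (SE 0.419, adjusted p = 0.878). Pxn overlaps 4 other genes, of which CG16986 was measured, and its share of the signal was not tested.

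Mmp2, a membrane-anchored metalloproteinase that cuts basement membrane, was the member with the lowest p-value. Its main probe set read 8.56 and 8.29 in untreated, 8.46 and 8.40 in mock and 7.80 and 7.94 in NELF-depleted cells. Both NELF-depleted arrays were below all controls, as they were in deposited intensities, at 213 and 200 units against 457 and 375 in untreated and 391 and 263 in mock. The control groups differed from each other by 0.00 (SE 0.129). Against mock the difference was -0.56 (SE 0.129, 67.9% of the mock level, adjusted p = 0.0806) and against untreated -0.56 (SE 0.129, adjusted p = 0.0811). Neither passed the threshold.

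Compared with the mean of mock and untreated cells, Mmp2 was called lower at -0.56 (SE 0.112, adjusted p = 0.0287), the sole member among the 2.06% of genes called in that contrast. Limited to genes above the median level, the tests against mock and untreated also passed (adjusted p = 0.0407 and 0.0405), whereas the single prior gave 0.410 and 0.434. Over all alternatives the adjusted p against mock ranged from 0.00111 to 0.996. The upper end came from the median over both Mmp2 probe sets, which moved the difference to -0.01. The second probe set was near background, at 3.99 and 3.14, 3.87 and 2.73, and 3.45 and 4.21, above it on 2 of 6 arrays. The gene table lists 5 noncoding genes that overlap Mmp2, and their share of the signal was not tested.

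**Figure D2:**
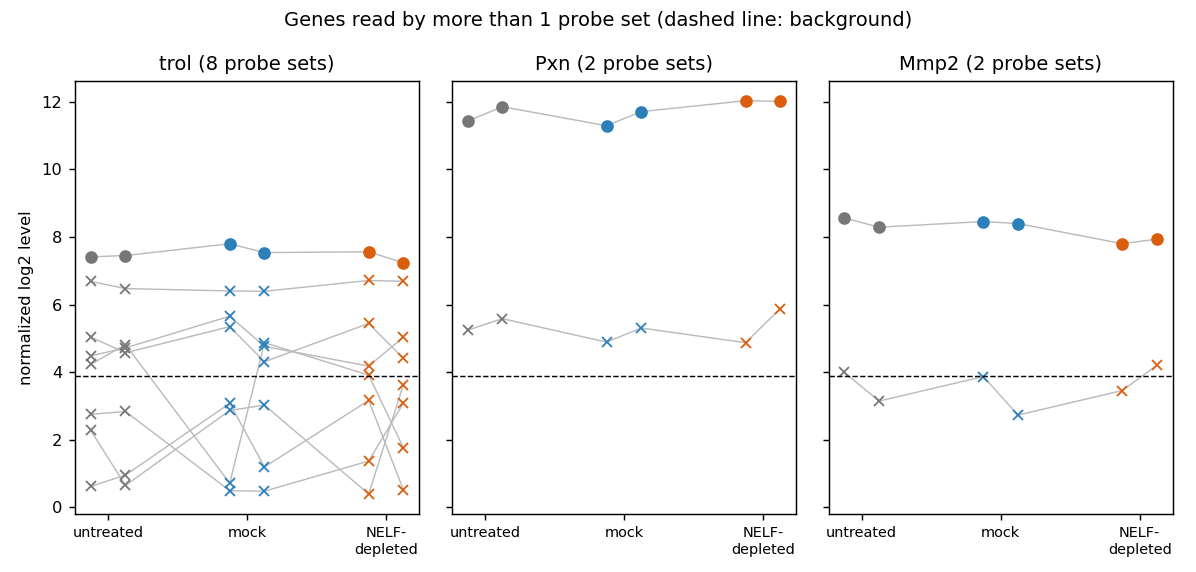
Normalized log2 level (vertical axis) of every probe set of trol, Pxn and Mmp2 on the 6 arrays; circles mark the probe set that stands for the gene, crosses the others, grey lines join the arrays of 1 probe set and the dashed line is background. Below the line, probe sets of trol scatter by several log2 units between arrays of the same group, while the brightest probe sets of all 3 genes stay within 0.8 units.

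Side by side, 2 of the 9 members (Pxn and Mmp2) had an unadjusted p under 0.05 in NELF-depleted against mock cells, where 11% of all genes did. The same 2 did against untreated cells, where the share of all genes was 10%. Both comparisons use the same NELF-depleted arrays, so they are not separate observations. For 3 of the 9 members (LanA, Pxn and Mmp2) both NELF-depleted arrays lay outside the range of the 4 control arrays, as they did for 22.1% of all genes and 28.3% of genes above background. With 9 genes, these shares do not set the members apart from other genes. Against untreated cells 1.41% of genes were called and 0 of the 9 members.

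**Figure D3:**
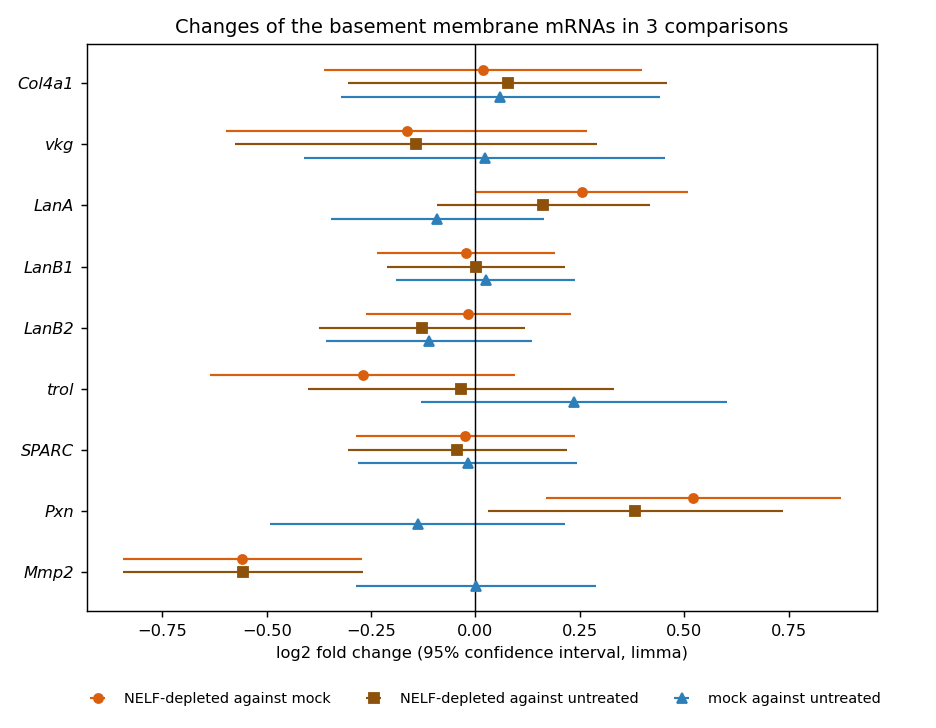
Log2 fold change (horizontal axis) with 95% confidence interval from limma for each basement membrane gene in 3 comparisons; circles are NELF-depleted against mock, squares NELF-depleted against untreated and triangles mock against untreated. Intervals exclude 0 for Pxn and Mmp2 in both comparisons with NELF-depleted cells before adjustment over all genes, and no member passed after it.

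Treatment with control dsRNA was compared by setting mock against untreated cells. No basement membrane gene differed between them by more than 0.24 on the log2 scale. The largest difference was that of trol, followed by Pxn at -0.14 (SE 0.159), LanB2 at -0.11 (SE 0.111) and LanA at -0.09 (SE 0.115). Col4a1 was at 0.06 and vkg, LanB1, SPARC and Mmp2 within 0.03 of 0. Limma with the intensity-dependent prior called 0% of all genes and 0 of the 9 members, with an adjusted p of 1.0 for each member. An unadjusted p under 0.05 was found for 3.41% of all genes and for 0 members.

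Genes that serve the same matrix were described by 4 lists, with counts of calls and medians. None of their measured genes was called in NELF-depleted against mock, in NELF-depleted against untreated or in mock against untreated cells. Differences named below are NELF-depleted minus mock and did not pass.

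Collagen IV has to be hydroxylated, folded and exported in large carriers, and 1 list holds genes for these steps. Of 17 genes on this list 13 were measured, 12 of them with means above background, and their median difference was 0.06. PH4alphaEFB, a prolyl 4-hydroxylase gene for collagen, read 11.57 and 11.56 in untreated, 11.71 and 11.37 in mock and 11.34 and 11.30 in NELF-depleted cells, a difference of -0.22 (SE 0.116, adjusted p = 0.542). Ehbp1, which acts with Rab10 in polarized trafficking, had one of 0.25 (SE 0.0970) and Rab10 one of 0.12 (SE 0.0874). Tango1, which encodes a receptor that loads collagen into export carriers, and Plod, the lysyl hydroxylase gene, were both at 0.06.

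Among 14 other matrix proteins, all measured, 7 had means above background and the median difference was -0.06. Hml, the hemolectin gene, which is also on the plasmatocyte marker list, read 4.50 and 4.80 in untreated, 4.45 and 4.54 in mock and 5.76 and 5.67 in NELF-depleted cells. Its NELF-depleted arrays were above all controls, at 1.23 (SE 0.393, adjusted p = 0.246). Tig, an integrin ligand gene that hemocytes express, was at -0.30 (SE 0.104, adjusted p = 0.280). For the laminin α gene wb both mock arrays were below background, and the NELF-depleted group mean was 1.38-fold above it (adjusted p = 0.416 against mock). Its NELF-depleted arrays read 4.78 and 3.90. Ndg, which encodes nidogen, had a mean below background in every group and exceeded it on 1 untreated array.

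Matrix receptors gave 11 measured genes of 12, with 10 means above background. The median difference was -0.38, and 8 of the 11 values were lower in NELF-depleted cells, beside a median of 0.01 over all genes. The list median was the value of Itgbn, a dim gene with a mean level of 4.66. Among the lower values, if, ItgaPS5 and Ddr had means of 3.87, 3.96 and 4.03, at or near background. That of mys, -0.76 (SE 0.413), rested on 1 array: NELF-depleted arrays read 11.25 and 9.65, against 11.38 and 11.04 in mock. The 3 higher values were 0.44 for Sdc, 0.15 for dlp and 0.04 for Dg. A shift of the receptors as a class was not tested. The αPS4 integrin gene ItgaPS4 read 5.27 and 5.23 in untreated, 5.26 and 5.34 in mock and 3.20 and 3.90 in NELF-depleted cells, of which 1 array was at or below background, as was the mean of that group. It differed by -1.75 (SE 0.454, adjusted p = 0.127). The αPS3 integrin gene scb was at -1.36 (SE 0.420, adjusted p = 0.227), with 5.09 and 4.84, 5.34 and 5.84, and 4.02 and 4.45. Sdc, the heparan sulfate proteoglycan syndecan, was higher on both NELF-depleted arrays than on all controls, at 0.44 (SE 0.112, adjusted p = 0.115).

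Genes that control matrix proteases were measured for 9 of 10, with 7 means above background and a median of 0.30. Timp, which encodes the single tissue inhibitor of metalloproteinases of the fly, read 3.29 and 3.75 in untreated, 3.51 and 3.49 in mock and 5.73 and 5.25 in NELF-depleted cells. It was below background on all 4 control arrays and above it on both NELF-depleted arrays. The NELF-depleted group mean was 3.05-fold above background (adjusted p = 0.148 for the difference from mock). AdamTS-A, a secreted metalloproteinase gene, was at -0.70 (SE 0.206, adjusted p = 0.194), and the ADAM protease gene Meltrin was at 0.34 (SE 0.108, adjusted p = 0.243). Reck, which encodes a membrane-bound protease inhibitor, was at -0.10.

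**Figure D4:**
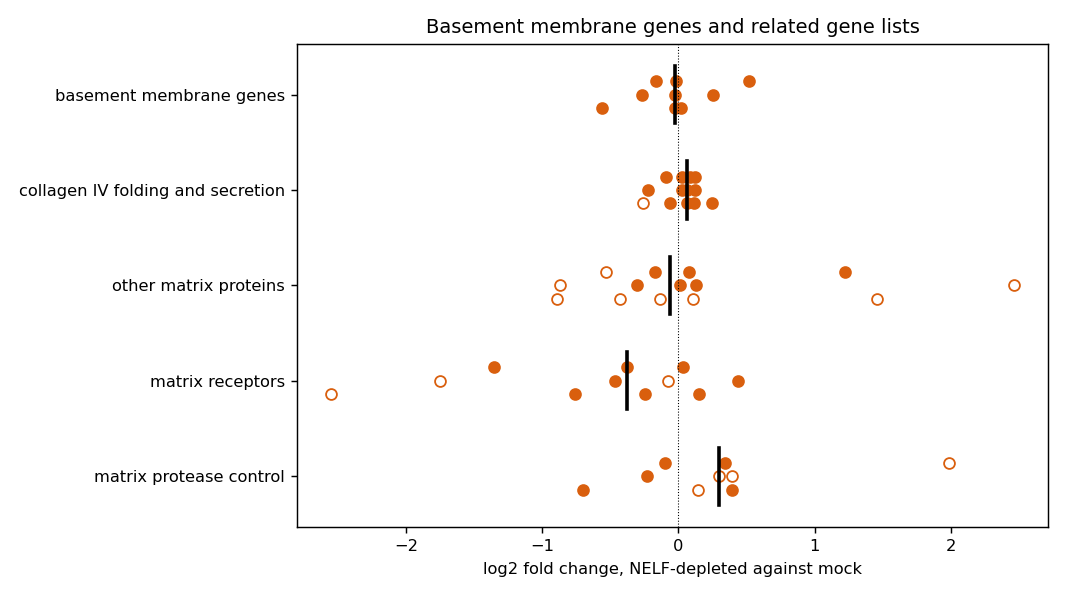
Log2 fold change of NELF-depleted against mock cells (horizontal axis) for the 9 basement membrane genes and the measured genes of 4 related lists; each point is a gene, the black bar is the median, and open points have at least 1 of both group means at or below background. Medians are -0.02 for the basement membrane genes, 0.06 for collagen IV folding and secretion, -0.06 for other matrix proteins, -0.38 for receptors and 0.30 for protease control, and no point passed the test.

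Genes with the most similar pattern over the 6 arrays were ranked by Pearson r among 6523 other genes above background. For the mean of Col4a1 and vkg the top 5 were Cchl (r = 0.991), GC1 (0.988), Ect3 (0.984), CG8173 (0.983) and Uxt (0.981). Their NELF-depleted minus mock differences were all within 0.05 of 0, and like the collagen genes each was higher on the same array of every group. The ranking itself selects genes with these traits. For Pxn the top 5 were Tim17a2 (r = 0.984), CG12106 (0.978), Mur2B (0.977), CG8478 (0.972) and Pop2 (0.969). Mur2B ran from 2.18 on a mock array, below background, to 5.04 on a NELF-depleted array, and none of these genes was called. These r values come from 6 arrays that share their group structure and a common normalization, and they are a ranking without a test.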

How the data were processed

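Total RNA of 6 S2 cell samples was hybridised to 1 array each. The authors deposited linear intensities per probe set; per the series design text, the scanning software was GeneChip Operating Software (1.2.0.037) or GeneChip Command Console (1.1), and Rosetta Resolver (6.0) took in the data. The sources used here give no probe summary, background correction, scaling or genome build for these files, so no position is printed, and no sequence table was used. A RefSeq gene table (Release 6) served only for names, neighbours and overlaps. No array depth exists; the number of arrays limits precision.

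Here log2(intensity + 0.819) of 18952 probe sets was quantile normalized (the offset is the 5th percentile of the values and makes changes of dim genes look smaller). Probe sets with exactly 1 gene (13647; 402 had several, 4720 were unlisted) were kept, and the brightest stood for its gene. For 11893 of 11981 genes the symbol was taken from the RefSeq gene table, whether or not it differed from the annotation. Limma 3.58.1 in R 4.3.3 fitted 3 group means over 6 arrays (3 residual and 7.31 prior degrees of freedom, intensity-dependent prior), with two-sided tests. The fit was also run on data simulated from its own means and variances, which cannot show how often it calls falsely on these arrays. Named genes are all members, the 3 genes of smallest p and any called gene of each list, 5 genes of like pattern per ranking, the dsRNA targets and cell type markers above and below background, of which those given with levels were picked after their values were seen. Tango1, Plod, Reck, Ndg and wb were named after their values were seen. Members and lists, and the choice of prior, were made with earlier results of these data known. Alternatives were other scalings, offset, filter, probe set rules, prior, controls, a block and leaving out arrays. Scan batches are not labelled.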

Additional observations from a re-analysis of the deposited data

How the results depend on the processing

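Of 414 alternative values of the members' differences, 8 passed the test, all lower. In NELF-depleted against mock cells the number of members called went from 0 to 4 with arrays scaled on hybridization controls (vkg, LanB1, trol and Mmp2). Under that scaling 2726 of all 11981 genes were called, and the all-gene median difference was -0.422. Relative to it these 4 were at -0.17, 0.00, -0.27 and -0.57. Among genes above the median and against both controls 1 was called, Mmp2, beside 247 of 5990 and 247 of 11981 genes. Against untreated cells 1 member, Mmp2, was called under hybridization control scaling and among genes above the median. Those settings called 2118 of 11981 and 236 of 5990 genes. Signs turned in 60 of the 414 values, nearly all for members within 1 SE of 0. The 4 exceptions were trol in mock against untreated (-0.15 as deposited, -0.047 with array medians, -0.13 with the median over probe sets) and LanB2 there (0.012 with hybridization controls).

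Over all genes, calls against mock were 162, and 54 as deposited, 54 with array medians, 2726 with hybridization controls, 74 with an offset of 50, 247 above the median, 0 with a single prior, 247 against both controls, and 69 to 126 with 1 array left out. Against untreated cells they were 169, and 2118 with hybridization controls, 89 with the offset of 50, 0 with a single prior and 70 to 146 with 1 array left out. With the replicate number as a block, 271 and 270 genes were called and no member (Mmp2 adjusted p = 0.0502 and 0.0512, vkg 0.484 against mock). Array 2 minus array 1 of a group correlated with that of another group at 0.145 to 0.158 across genes, but the labels do not say what the numbers mark. With any single array left out no member was called.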
